A study of Mus musculus with 20 samples.

Results

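The endocannabinoid system of the cerebellum was followed through 9 genes that make, sense and break down its lipid messengers. They were found by symbol among the 55401 genes of the count table, all 9 were present, and each had enough reads to be tested in every comparison. Dagla and Daglb encode the diacylglycerol lipases. Cnr1 encodes the cannabinoid receptor CB1, and Cnrip1 a protein that binds the tail of this receptor. Mgll, Abhd6 and Abhd12 encode hydrolases of 2-arachidonoylglycerol (2-AG), and Napepld and Faah encode the enzymes that release and degrade anandamide.

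In the cerebellar cortex 2-AG is a retrograde messenger. Glutamate acting on Purkinje cells (PCs) drives phospholipase C beta, which produces diacylglycerol, and the lipase DAGLα in the PC dendrite turns it into 2-AG. The lipid then crosses the synapse to CB1 on the terminals of granule cell parallel fibres, climbing fibres and interneurons, where it lowers transmitter release, and it is cleared mainly by monoacylglycerol lipase, the product of Mgll. This signalling is required for short-term forms of synaptic depression and for long-term depression at parallel fibre synapses.

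The libraries came from mice with spinocerebellar ataxia type 7 (SCA7), a polyglutamine disease caused by a CAG expansion in Atxn7, and from WT mice, all on the C57BL/6J strain, with the whole cerebellum of 1 mouse in each library. The 14 late libraries carry the label 25w and comprise 5 AAV-shSCR-treated SCA7 mice, 5 AAV-shA4-treated SCA7 mice and 4 untreated WT mice. The 6 early libraries carry the label 9w and comprise 3 AAV-shA4-treated WT mice and 3 untreated WT mice. The paper gives the late AAV-shSCR-treated SCA7 and untreated WT mice as males, and the sex of the early mice is not given here. The labels do not say whether 9w and 25w count weeks of age or weeks after injection. The paper describes the harvests by weeks after injection, which matches the label 9w for the early mice and differs from 25w for the late ones. Early and late are therefore used here as names of time points only. The shRNA named A4 was designed against CAG repeats, shSCR is a scrambled control, and both were delivered into the blood by the AAV PHP.eB capsid with an eGFP reporter under the CMV promoter and the shRNA under the H1 promoter, while untreated mice received saline according to the methods. The SCA7 mice are knock-in animals that carry 1 expanded Atxn7 allele in all of their cells. There was no SCA7 library without AAV and no late WT library with AAV, so that genotype and AAV injection cannot be told apart in the comparisons of SCA7 with WT mice.

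Between 31465586 and 54570503 reads were counted on genes in each library. The 9 members were covered by at least 428 reads in each library, the lowest being Napepld in an AAV-shA4-treated SCA7 mouse, and Dagla by 3622 to 10283 reads. Atxn7 stood at 48.5 CPM ± 1.97 (SD, n = 4) in WT, 49.5 CPM ± 2.90 (SD, n = 5) in AAV-shSCR-treated SCA7 and 48.1 CPM ± 2.70 (SD, n = 5) in AAV-shA4-treated SCA7 mice of the late time point. The gene counts do not separate its normal and expanded alleles, so these values do not check the labels. Markers of PCs (15 genes), granule cells (10 genes), molecular layer interneurons (10 genes), Bergmann glia and astrocytes (11 genes), oligodendrocytes (10 genes) and microglia (10 genes) were detected in each library with no marker at 0. CPM denotes normalised counts scaled to library size by TMM over the 20 libraries. Changes are given as log2 fold changes from edgeR's quasi-likelihood test with their standard error (SE) and Benjamini-Hochberg adjusted p, and a gene passed the test at an adjusted p under 0.05.

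Levels of different genes were compared per kilobase of the median transcript length of each gene (RPKM). In untreated WT mice of the late time point Abhd12 had the highest level with 170 RPKM ± 5.83 (SD, n = 4), followed by Mgll with 115 RPKM ± 2.09 and Cnr1 with 84.5 RPKM ± 5.15. Dagla, at 34.4 RPKM ± 0.942, came next and lay above Cnrip1 at 31.3 RPKM ± 0.777. Abhd6 and Faah were both at 27.8 RPKM and their ranges over mice overlapped. Daglb was expressed at 14.2 RPKM ± 0.481 and Napepld at 4.01 RPKM ± 0.0595, so that in WT cerebellum the transcript of the DAGLα gene was 2.42 ± 0.124 times as abundant per length as that of the DAGLβ gene. The other neighbours in this order did not overlap between mice. In AAV-shSCR-treated SCA7 mice Dagla, at 20.5 RPKM ± 1.09 (SD, n = 5), lay below Cnrip1, Faah and Abhd6 with no overlap. The order depends on the transcript length chosen, above all for Mgll and Faah. The Mgll gene has a median transcript of 1171 bases and a longest one of 3991 bases. With the longest transcript of each gene, a choice made after seeing the data, Mgll was at 33.7 RPKM and overlapped Dagla at 34.1 RPKM in WT mice, and Faah was at 11.7 RPKM. The ratio of Dagla to Daglb in these WT mice was then 3.18 ± 0.163 instead of 2.42 ± 0.124. In AAV-shSCR-treated SCA7 mice Dagla, at 20.3 RPKM, then lay above Faah at 12.1 RPKM with no overlap, the reverse of the order by median length, and stayed below Cnrip1 and Abhd6.

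Of the 9 genes, Dagla was the one that fell in AAV-shSCR-treated SCA7 mice by more than 1.3-fold, and it was reduced to a similar level in AAV-shA4-treated SCA7 mice. Dagla (ENSMUSG00000035735, on the minus strand of GRCm38 chromosome 19 from 10245265 to 10304877) had 193, 198, 185 and 193 CPM in the 4 untreated WT mice of the late time point. It had 120, 116, 119, 105 and 112 CPM in the 5 AAV-shSCR-treated SCA7 mice. The 5 AAV-shA4-treated SCA7 mice had 117, 117, 121, 125 and 117 CPM. The highest SCA7 mouse thus lay far below the lowest WT mouse, and the 2 SCA7 groups overlapped. With AAV-shSCR the level was 1.67-fold lower than in WT mice (log2 fold change -0.74, SE 0.037, adjusted p = 3.25e-09). With AAV-shA4 it was 1.61-fold lower (log2 fold change -0.68, SE 0.037, adjusted p = 1.11e-08). Of the 14862 genes tested, 1.57% had a lower log2 fold change than Dagla with AAV-shSCR and 1.16% with AAV-shA4. As these are whole cerebella, fewer cells of a type and less RNA per cell cannot be told apart.

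In total 1 of the 9 members passed the test with AAV-shSCR, where 15.5% of all genes passed, 8.65% as lower genes and 2.66% as lower genes beyond 1.3-fold. With AAV-shA4, 3 of the 9 members passed, all lower, where 13.6% of all genes passed, 8.11% as lower genes and 2.27% as lower genes beyond 1.3-fold. Both comparisons use the same 4 WT mice and are not independent. The same shares of all genes apply to the counts of passing markers and list genes given below for these comparisons. At an unadjusted p under 0.05, 4 of the 9 members qualified in each of these comparisons. The share of all genes at that threshold is not given for them, so nothing is read from this count. The 9 members had a median log2 fold change of -0.06 (AAV-shSCR) and -0.08 (AAV-shA4) beside 0.0017 and 0.0061 for all genes. Groups without overlap were seen for Dagla and Abhd12 in the AAV-shSCR comparison and for Dagla and Daglb in the AAV-shA4 comparison, compared with 16.7% and 13.5% of all genes.

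**Figure D1:**
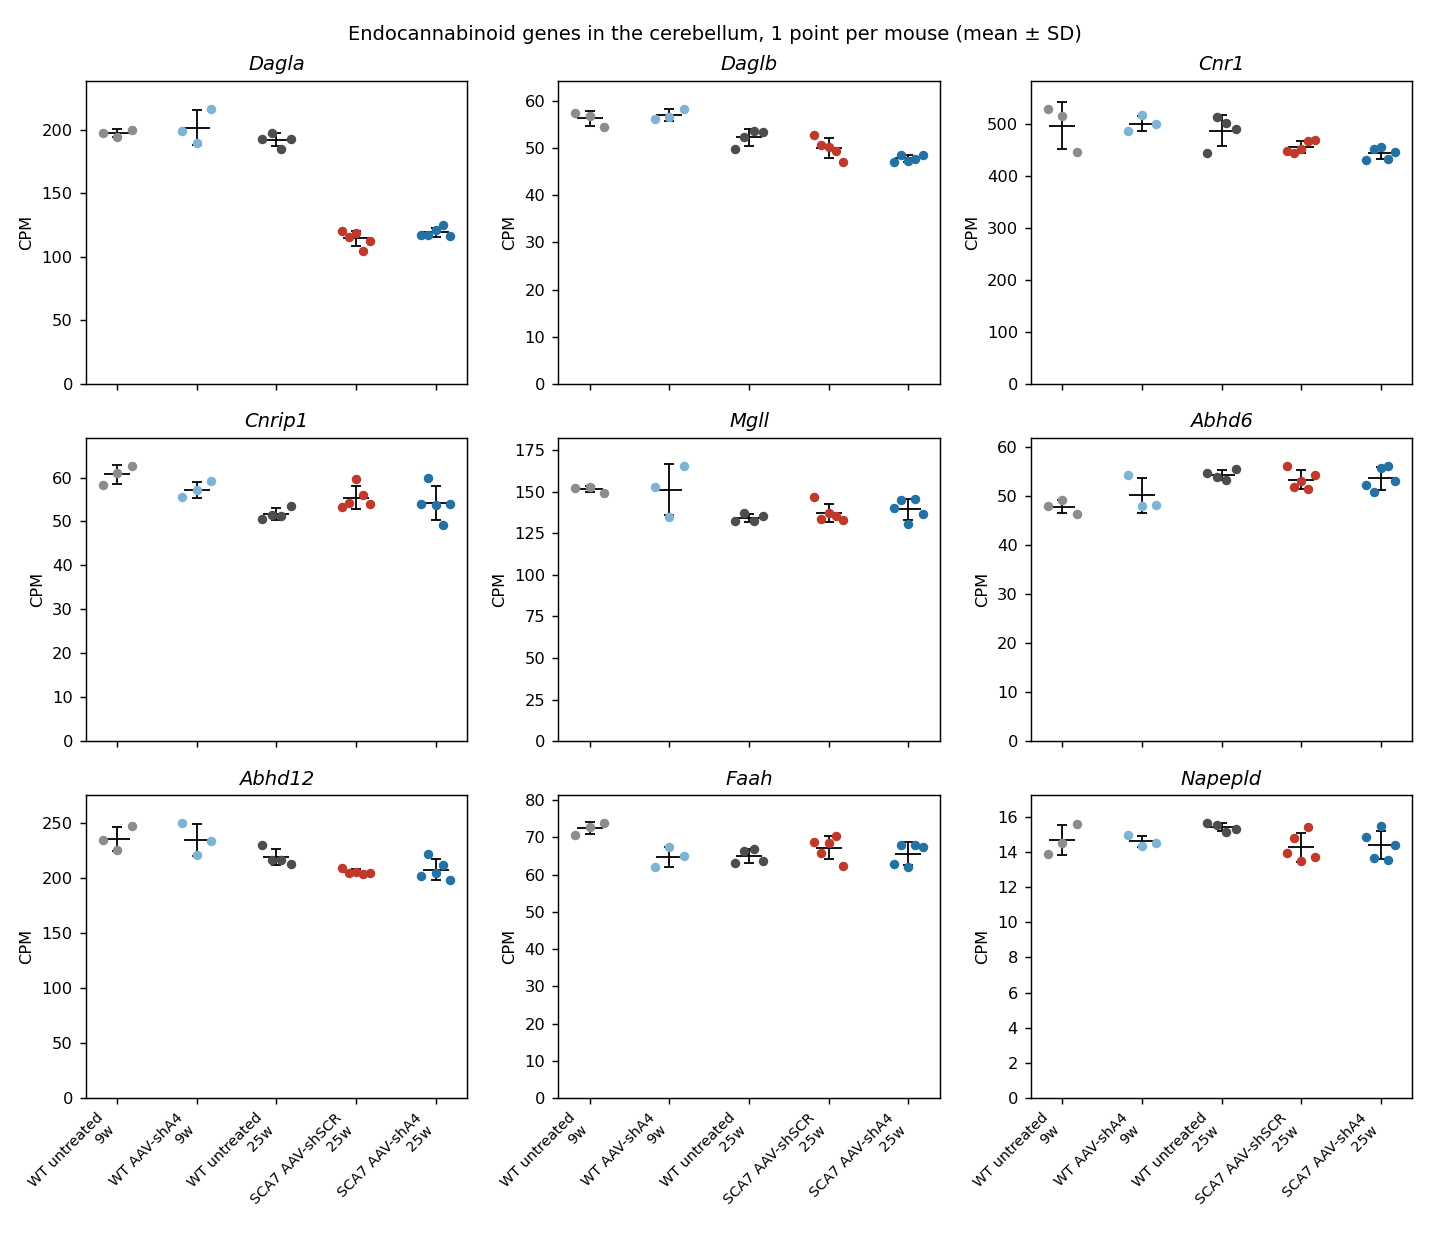
Level of the 9 endocannabinoid genes in the cerebellum of each mouse in CPM (vertical axes from 0), by genotype, treatment and labelled time point, with the mean and SD of each group as bars. The 10 SCA7 mice lie between 105 and 125 CPM for Dagla, below the 185 to 217 CPM of the 10 WT mice, and the axes of the other 8 genes show differences that are small beside their level.

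Daglb encodes DAGLβ, the second 2-AG-producing lipase, which is known mainly from microglia and macrophages. The gene (ENSMUSG00000039206) lies on chromosome 5, bases 143464584 to 143505942, plus strand. It had 49.8, 52.4, 53.7 and 53.3 CPM in the WT mice, and 52.8, 50.7, 50.2, 49.4 and 47.0 CPM in the AAV-shSCR-treated SCA7 mice. These groups overlapped and the log2 fold change of -0.06 (SE 0.035, adjusted p = 0.276) did not pass. The AAV-shA4-treated SCA7 mice had 47.1, 48.6, 47.2, 47.8 and 48.5 CPM, all below the WT mice. Daglb passed here with a log2 fold change of -0.13 (SE 0.035, adjusted p = 0.0256), a reduction of 8.33%, and the pass was lost without any 1 of WT replicates 2, 3 and 4 or AAV-shA4 replicate 1, at an adjusted p of up to 0.0826. Exons of Daglb overlap those of Rac1 on the opposite strand, and the strand setting of the read counting is not stated. The summed level of the 10 microglial markers was 233 to 264 CPM in WT, 227 to 300.2 CPM in AAV-shSCR-treated and 231 to 302 CPM in AAV-shA4-treated SCA7 mice, and 0 of these 10 markers passed in either comparison by edgeR, with 0 and 1 of them at an unadjusted p under 0.05.

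The balance between transcripts of the pathway was described by ratios within each mouse. The ratio of Dagla to Daglb per length ranged from 2.27 to 2.55 in WT mice of the late time point, from 1.40 to 1.57 with AAV-shSCR and from 1.58 to 1.73 with AAV-shA4. With the longest transcripts the ranges were 2.981 to 3.355, 1.838 to 2.069 and 2.082 to 2.269. All 10 SCA7 mice lay below the WT mice, and the 2 SCA7 groups lay side by side without overlap, the gap between them being smaller than the SD of either group. The ratio of Dagla to Mgll, of the lipase that makes 2-AG to the main one that clears it, was 0.299 ± 0.00592 (SD, n = 4) in WT, 0.174 ± 0.00794 (SD, n = 5) with AAV-shSCR and 0.179 ± 0.00916 (SD, n = 5) with AAV-shA4. With the longest transcripts the same ratio was 1.01 ± 0.0200 (SD, n = 4), 0.590 ± 0.0268 (SD, n = 5) and 0.607 ± 0.0310 (SD, n = 5), so that its size depends on the length and its order between the groups does not. The ratio of Dagla to Cnr1 was 0.408 ± 0.0282, 0.259 ± 0.0192 and 0.278 ± 0.0126 in the same groups. The ratios were formed from the members after their values were known, and no test was run on them.

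Markers of the PC, the cell that holds most of the cerebellar DAGLα, moved with Dagla. All 15 PC markers passed as lower with AAV-shSCR, 11 of them beyond 1.3-fold, with a median log2 fold change of -0.46 and a range from -0.87 to -0.28. All 15 also passed as lower with AAV-shA4, with a median of -0.46. Gng13, the gamma subunit of a G protein, and Rgs8, a regulator of G protein signalling, had the lowest values with AAV-shSCR at -0.87 (SE 0.069) and -0.78 (SE 0.046), and these 2 were the markers below Dagla. With AAV-shA4, 3 markers lay below Dagla. The summed level of the 15 markers was 11270 to 12700 CPM in WT mice, 7808 to 8733 CPM with AAV-shSCR and 7939 to 9175 CPM with AAV-shA4. Per 100 CPM of these markers, Dagla amounted to 1.61 ± 0.0752 CPM in WT mice (range 1.56 to 1.71), 1.36 ± 0.0466 CPM with AAV-shSCR (range 1.29 to 1.39) and 1.39 ± 0.0611 CPM with AAV-shA4 (range 1.32 to 1.48). Relative to this sum of markers Dagla was thus still lower in all 10 SCA7 mice than in the 4 WT mice, by a smaller margin than in CPM. The part of these markers in the level of Dagla was not tested.

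Markers of other cell types were counted in the same way. With AAV-shSCR, 6 of the 10 oligodendrocyte markers, 3 of the 11 astrocyte and Bergmann glia markers and 2 of the 10 interneuron markers passed as lower and none as higher, and the same counts were found with AAV-shA4. The summed oligodendrocyte markers were 5722 to 6773 CPM in WT mice, 4198 to 5041 CPM with AAV-shSCR and 4658 to 5293 CPM with AAV-shA4. Their part in the levels of the members was not tested.

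**Figure D2:**
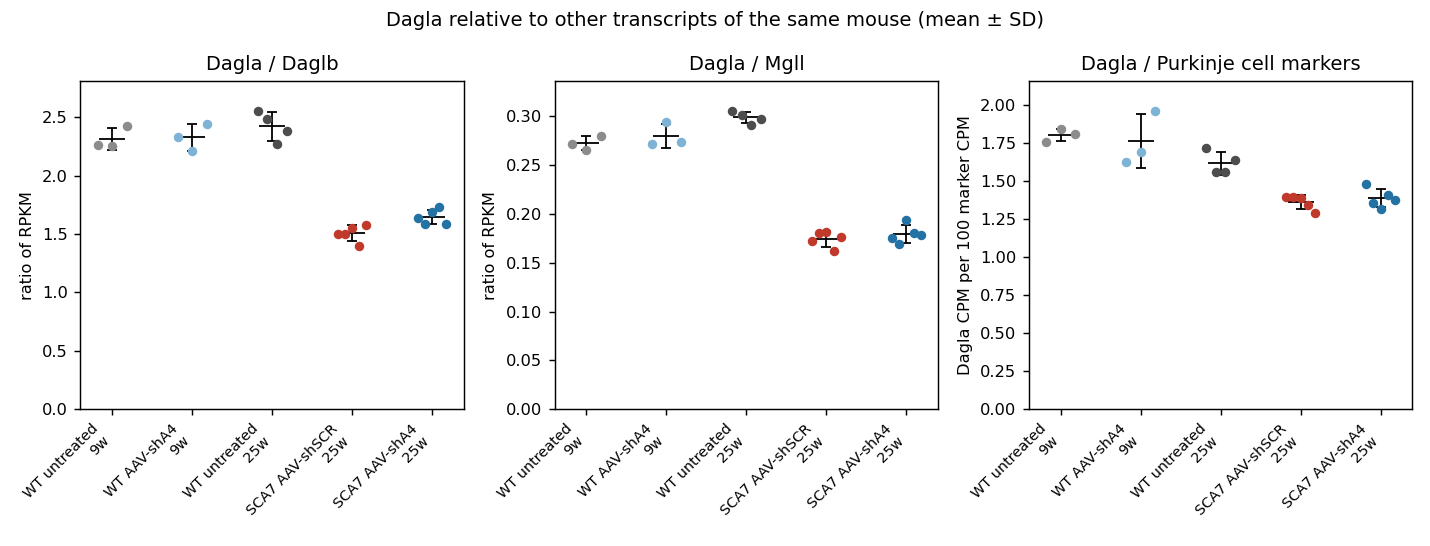
Dagla relative to other transcripts of the same mouse, with 1 point per mouse and the mean and SD of each group: the ratio of RPKM to Daglb (left) and to Mgll (middle), and Dagla CPM per 100 CPM of the 15 summed PC markers (right). All SCA7 points lie below all WT points in each panel, with ranges of 1.40 to 1.73 against 2.21 to 2.55 for Daglb, and the distance is shortest on the right, where the SCA7 mice reach 1.48 and the lowest WT mouse has 1.56.

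CB1 is among the most abundant G protein-coupled receptors of the brain, and in the cerebellum its transcript is carried mainly by granule cells and interneurons. Cnr1 (ENSMUSG00000044288, chromosome 4, bases 33924593 to 33948831, plus strand) had 445, 513, 501 and 489 CPM in WT mice of the late time point. It had 448, 443, 451, 467 and 468 CPM with AAV-shSCR and 430, 452, 456, 433 and 445 CPM with AAV-shA4. WT replicate 1 lay within the range of the SCA7 mice, and the other 3 WT mice lay above all SCA7 mice. The log2 fold change was -0.09 (SE 0.037, adjusted p = 0.107) with AAV-shSCR. It was -0.13 (SE 0.037, adjusted p = 0.0248) with AAV-shA4, a reduction of 8.81% that passed the test. The outcome turns on single mice. Without WT replicate 1, Cnr1 also passed with AAV-shSCR (adjusted p = 0.00966), and with AAV-shA4 the pass was lost without WT replicate 2, 3 or 4 or AAV-shA4 replicate 1 or 4, at an adjusted p of up to 0.0943. It was also lost in a fit of these 2 groups alone (adjusted p = 0.0626) and in a fit of all 20 libraries (adjusted p = 0.0538). WT replicate 1 also had the lowest summed level of the 10 granule cell markers of its group, 6471 CPM against 7427 to 7661 CPM in the other 3 WT mice, compared with 6968 to 7226 CPM with AAV-shSCR and 6173 to 6977 CPM with AAV-shA4. Of these markers 2 passed as lower and 2 as higher with AAV-shSCR, and 3 as lower and 1 as higher with AAV-shA4. The part of granule cell content in the level of Cnr1 was not tested.

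Cnrip1, whose product CRIP1a restrains signalling by CB1 (ENSMUSG00000044629, chromosome 11, bases 17051586 to 17079371, plus strand), had 50.5, 51.4, 51.3 and 53.5 CPM in WT mice, 53.3 to 59.7 CPM (median 54.3) with AAV-shSCR and 49.2 to 59.9 CPM (median 54.0) with AAV-shA4. The groups overlapped, and the log2 fold changes of 0.11 (SE 0.047, adjusted p = 0.148) and 0.07 (SE 0.047, adjusted p = 0.361) did not pass. Exons of Cnrip1 overlap those of Plek on the opposite strand.

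None of the 3 genes for 2-AG hydrolases passed in either comparison of SCA7 with WT mice by edgeR. Of these 3 genes, Abhd12 alone had an unadjusted p under 0.05 in both, a threshold for which the share of all genes is not given. Mgll (ENSMUSG00000033174, chromosome 6, bases 88724412 to 88828360, plus strand, with exons that overlap an antisense gene, Gm26588) had 132, 137, 133 and 136 CPM in WT mice, 133 to 147 CPM (median 136) with AAV-shSCR and 130 to 146 CPM (median 140) with AAV-shA4. Its log2 fold changes were 0.03 (95% interval -0.042 to 0.11) and 0.06 (95% interval -0.020 to 0.13), intervals that do not reach the size of the change of Dagla. Abhd6, the product of which hydrolyses 2-AG on the postsynaptic side (ENSMUSG00000025277, chromosome 14, bases 8002902 to 8056763, plus strand), had 53.4 to 55.5 CPM in WT and 50.9 to 56.2 CPM in the 10 SCA7 mice, with log2 fold changes of -0.02 (95% interval -0.10 to 0.054) and -0.02 (95% interval -0.095 to 0.059).

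Abhd12 encodes a serine hydrolase that is also a lysophosphatidylserine lipase of microglia, and it was the most abundant of the 9 transcripts per length (ENSMUSG00000032046, chromosome 2, bases 150832493 to 150904741, minus strand). It had 230, 216, 217 and 213 CPM in WT mice and 209, 205, 206, 204 and 205 CPM with AAV-shSCR, which was lower in each SCA7 mouse than in each WT mouse. The log2 fold change of -0.09 (SE 0.033, adjusted p = 0.0896) did not pass, although it did in a fit of these 2 groups alone (adjusted p = 0.0482). With AAV-shA4 the values of 202, 222, 204, 212 and 198 CPM overlapped with WT mice (log2 fold change -0.08, SE 0.033, adjusted p = 0.157). Without AAV-shA4 replicate 2, the mouse at 222 CPM, Abhd12 passed with a log2 fold change of -0.10 (adjusted p = 0.0371). Abhd12 made up 54.3% ± 1.12 (SD, n = 4) of the summed RPKM of the 3 hydrolases in WT mice, 52.4% ± 0.672 (SD, n = 5) with AAV-shSCR and 52.3% ± 0.898 (SD, n = 5) with AAV-shA4. Mgll made up 36.8%, 38.6% and 38.8%, and Abhd6 8.90%, 8.97% and 8.93%. With the longest transcripts the shares were 65.3%, 63.8% and 63.7% for Abhd12, 20.1%, 21.3% and 21.5% for Mgll and 14.6%, 14.9% and 14.8% for Abhd6.

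The anandamide branch showed no member that passed by edgeR in the SCA7 mice, nor one at an unadjusted p under 0.05. Napepld, which encodes the phospholipase D that releases anandamide and related N-acylethanolamines (ENSMUSG00000044968, chromosome 5, bases 21662901 to 21701396, minus strand), was the least abundant member, with 15.7, 15.5, 15.2 and 15.3 CPM in WT mice, 13.5 to 15.4 CPM (median 13.9) with AAV-shSCR and 13.6 to 15.5 CPM (median 14.4) with AAV-shA4. The log2 fold changes were -0.11 (SE 0.056, adjusted p = 0.218) and -0.10 (SE 0.056, adjusted p = 0.302). Faah, the fatty acid amide hydrolase that degrades anandamide (ENSMUSG00000034171, chromosome 4, bases 115967145 to 116017926, minus strand), had 63.2 to 66.9 CPM in WT mice, 62.4 to 70.3 CPM with AAV-shSCR and 62.0 to 68.1 CPM with AAV-shA4. Its log2 fold changes were 0.05 (95% interval -0.034 to 0.14) and 0.02 (95% interval -0.068 to 0.10).

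**Figure D3:**
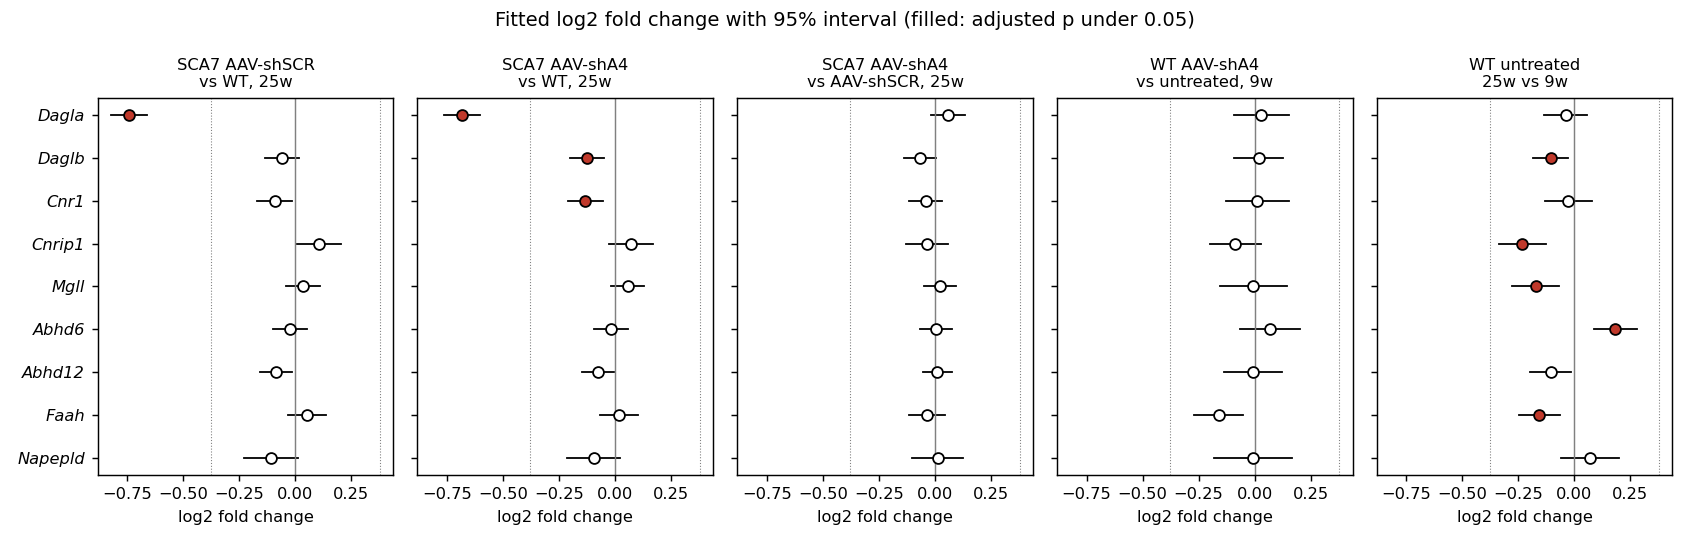
Fitted log2 fold change (horizontal axes) of the 9 genes in 5 comparisons, with 95% intervals as bars, filled points for an adjusted p under 0.05 and dotted lines at a fold change of 1.3 in either direction. Dagla stands beyond the dotted line in both comparisons of SCA7 with WT mice, at -0.74 and -0.68, and no other point crosses it.

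The direct comparison of the treatments in SCA7 mice asked whether A4 shRNA altered these transcripts relative to the scrambled shRNA. None of the 9 members passed, and 0 of the 14862 genes did (0%) by edgeR, while 1222 genes (8.22%) and 0 members had an unadjusted p under 0.05. DESeq2 and limma-voom also passed 0 members. Dagla was higher with AAV-shA4 by a log2 fold change of 0.06 (95% interval -0.016 to 0.14, adjusted p = 0.673), an interval that reaches at most a rise of 9.92% and does not reach the WT level. Daglb had the largest difference with the opposite sign, -0.07 (95% interval -0.14 to 0.0059, adjusted p = 0.633). The remaining 7 members had log2 fold changes between -0.04 and 0.02, and the groups overlapped for all 9, as they did for all but 1.49% of genes.

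In WT mice of the early time point AAV-shA4 was compared with no treatment, which bears on the joint effect of A4 shRNA and AAV without the disease. There was no early library with AAV-shSCR, so that A4 shRNA and AAV injection cannot be told apart here. None of the 9 members passed by edgeR, DESeq2 or limma-voom, where 0.0679% of 14733 genes did by edgeR, and 1 member and 11.1% of genes had an unadjusted p under 0.05. Dagla had 199, 190 and 217 CPM with AAV-shA4 and 198, 194 and 200.1 CPM without, a log2 fold change of 0.03 (95% interval -0.094 to 0.15). The member with the unadjusted p under 0.05 was Faah, with 62.0, 67.3 and 65.2 CPM with AAV-shA4 against 70.7, 72.7 and 73.9 CPM without. These 2 groups did not overlap, as in 16.0% of genes, and the log2 fold change of -0.16 (SE 0.050) had an adjusted p of 0.310. The longest run of CAG in the transcripts of the 9 genes was 1 repeat for Napepld, 3 repeats for Mgll and 2 repeats for the others. The AAV-shA4-treated mice had 36245752 to 39208298 reads and the untreated mice 47455917 to 49212593, and the part of this difference in depth in the values was not tested.

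Between untreated WT mice of the 2 labelled time points, 5 of the 9 members differed, each by less than 1.3-fold. In this comparison 24.2% of 15095 genes passed, 5.27% beyond 1.3-fold. Of the 3651 passing genes, 1840 were higher in the late mice, which is 12.2% of the genes tested. Cnrip1 went from 58.4, 61.1 and 62.7 CPM to 50.5 to 53.5 CPM (log2 fold change -0.23, SE 0.051, adjusted p = 0.00246), a reduction of 14.8%. Mgll went from 152, 153 and 150 CPM to 132 to 137 CPM (-0.17, SE 0.051, adjusted p = 0.0178). Faah was lower at the late time point as well (-0.16, SE 0.044, adjusted p = 0.0141), and Daglb passed narrowly (-0.11, SE 0.038, adjusted p = 0.0476). Abhd6 was the member that rose, from 48.1, 49.2 and 46.5 CPM to 53.4 to 55.5 CPM (0.18, SE 0.046, adjusted p = 0.00625).

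For these 5 genes the mice of the 2 time points did not overlap, as for 33.3% of all genes. Dagla had 194 to 200.1 CPM at the early and 185 to 198 CPM at the late time point, which overlapped (log2 fold change -0.04, SE 0.045, adjusted p = 0.576), and Cnr1, Abhd12 and Napepld did not pass either. The pass of Daglb was lost without any 1 mouse except early replicate 3 (adjusted p of up to 0.153), that of Mgll without early replicate 1 or 2 (up to 0.0539) and that of Faah without early replicate 3 (0.0658), while Abhd12 passed without late replicate 1 (0.0442). The summed oligodendrocyte markers were 8026 to 8310 CPM at the early and 5722 to 6773 CPM at the late time point, and 8 of the 10 passed as lower. The summed granule cell markers were 7547 to 8445 CPM and 6471 to 7661 CPM, with 5 of 10 passing as lower and a median log2 fold change of -0.15. The summed microglial markers were 208 to 221 CPM and 233 to 264 CPM, with 3 of 10 passing as higher and a median of 0.18. The part of these cell types in the differences was not tested. The paper analyses the 2 time points separately, and the labels name no batch. Time and any difference in sex, collection or sequencing can therefore not be told apart. The untreated late mice are also the WT mice of the SCA7 comparisons.

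The steps that supply DAGLα with diacylglycerol were examined with a list of 13 genes for phospholipase C beta, the G proteins that activate it and their partners. With AAV-shSCR, 5 of them passed as lower, 3 beyond 1.3-fold, and 0 as higher, and their median log2 fold change was -0.12. Plcb3, a phospholipase C beta isoform of PCs, measured 93.3 CPM ± 5.95 (SD, n = 4) in WT mice and 52.0 CPM ± 2.48 (SD, n = 5) with AAV-shSCR, and its log2 fold change of -0.84 (SE 0.051) was lower than that of Dagla. Homer3, a postsynaptic scaffold protein of PC spines that belongs to a family that also binds DAGLα, went from 499 CPM ± 29.7 to 330 CPM ± 22.5 (-0.59, SE 0.051). Camk2a and Camk2b, subunits of the kinase CaMKII that phosphorylates DAGLα, fell by 0.67 (SE 0.16) and 0.16 (SE 0.028) on the log2 scale. Gnaq, a G protein alpha subunit that activates phospholipase C beta, passed with a smaller value of -0.14. Plcb4, the other phospholipase C beta isoform of PCs, did not pass (-0.10, adjusted p = 0.138). With AAV-shA4, 4 genes of the list passed as lower and 0 as higher, with Plcb3 at -0.83 and Homer3 at -0.55. Camk2a had -0.43 and did not pass (adjusted p = 0.0980). It varied widely between mice, with 138 to 237 CPM in WT, 97.5 to 113 CPM with AAV-shSCR and 106 to 186 CPM with AAV-shA4. Camk2a did not pass between the SCA7 groups by edgeR either (adjusted p = 0.706).

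Diacylglycerol kinases divert the same substrate into phosphatidic acid. Of 9 such genes, Dgkh (-0.53, SE 0.053) and Dgkz (-0.40, SE 0.044) passed as lower and Dgkd (0.16, SE 0.044) as higher with AAV-shSCR. With AAV-shA4, Dgkh (-0.46) and Dgkz (-0.42) passed and Dgkd had 0.08 (adjusted p = 0.273). The median of the list was -0.01 with AAV-shA4.

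Of 18 other enzymes and carriers of endocannabinoids and N-acylethanolamines, 16 could be tested, Plaat5 and Alox15 having too few reads. With AAV-shSCR 4 passed as lower and 1 as higher, where 15.5% of all genes passed, and none of the lower ones was beyond 1.3-fold. The higher one was Pla2g4e, which encodes the calcium-dependent N-acyltransferase that makes the precursor of anandamide, with a log2 fold change of 0.63 (SE 0.13, adjusted p = 0.00363) with AAV-shSCR and 0.63 (SE 0.13, adjusted p = 0.00373) with AAV-shA4. Fabp5, a fatty acid-binding protein that carries anandamide, had -0.29 (SE 0.087) and -0.34 (SE 0.087), and Ptpn22 and Gdpd1 had -0.26 and -0.12 with AAV-shSCR.

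Of 7 other receptors for these lipids, Cnr2, Ppara and Pparg could be tested in the late mice, whereas Gpr55, Gpr18, Gpr119 and Trpv1 had too few reads. None of the 3 passed by edgeR, with 2 and 1 of them at an unadjusted p under 0.05 with AAV-shSCR and AAV-shA4. These counts stand without a share of all genes at that threshold.

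Among 12 genes for proteins that bind CB1 or carry its signal, 4 passed as lower and 1 as higher with AAV-shSCR, where 15.5% of all genes passed. Gnao1, the alpha subunit of the G protein Go, had -0.27 (SE 0.031), Kcnj9, a potassium channel opened by G proteins, -0.21 (SE 0.034), Arrb1, an arrestin, -0.18 (SE 0.041), and Gnai1 -0.15 (SE 0.037). With AAV-shA4, 3 passed as lower and 3 as higher, and Kcnj9 had -0.33 (SE 0.034). None of the 5 lists had a gene that passed between the 2 SCA7 groups, where 0 of 14862 genes did.

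**Figure D4:**
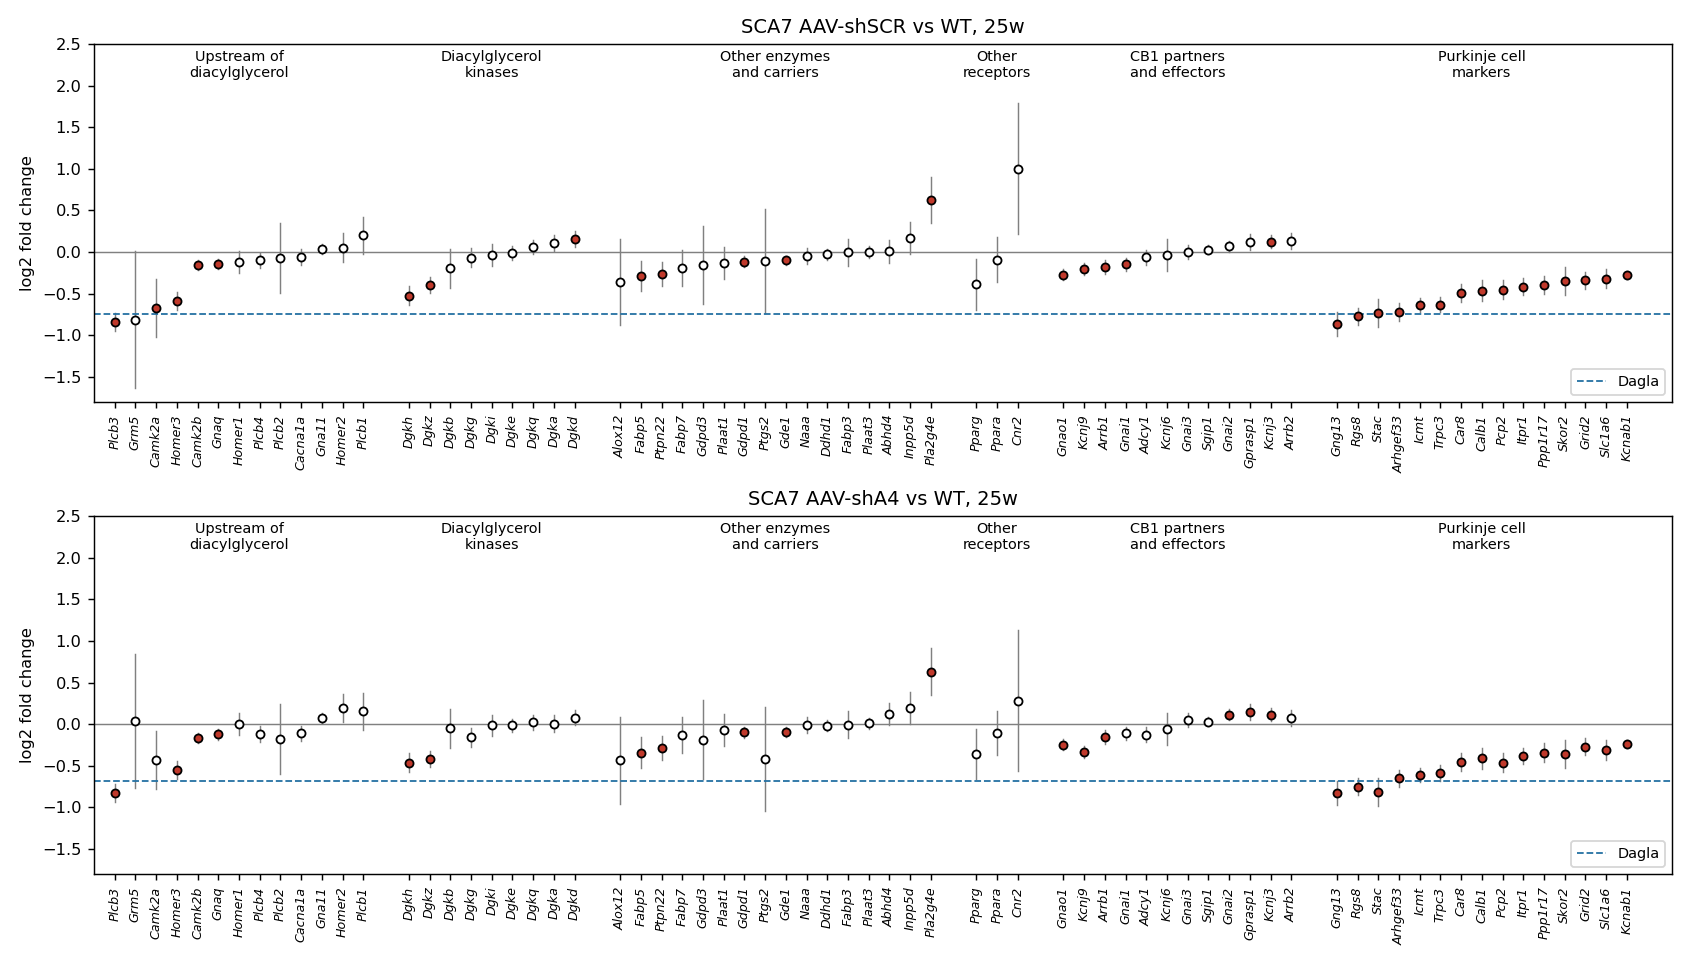
Fitted log2 fold change (vertical axis) against WT mice of the late time point for the tested genes of 5 lists of the pathway and for the 15 PC markers, in AAV-shSCR-treated (top) and AAV-shA4-treated (bottom) SCA7 mice, with 95% intervals as bars, filled points for an adjusted p under 0.05 and a dashed line at the value of Dagla. Plcb3 at -0.84 and the PC markers Gng13 and Rgs8 at -0.87 and -0.78 are the passing genes below the line in the top panel, and Pla2g4e at 0.63 is the highest passing point in both.

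The genes whose level followed a member most closely over the 14 late libraries were named by Pearson's r of log2 CPM among 10135 protein-coding genes with a mean of at least 10 CPM. The 14 libraries form 2 separate levels for Dagla, WT and SCA7, so that the values mainly rank genes by how they share this step, and they are given as a description. For Dagla they were Ppp1r16b (r = 0.998), Sbk1 (0.993), Gabbr1 (0.992), Cep72 (0.992) and Nsg1 (0.989). Ppp1r16b, a regulatory subunit of protein phosphatase 1, was at 308 CPM ± 9.72 (SD, n = 4) in WT mice, at 185 CPM ± 6.55 (SD, n = 5) in SCA7 mice given AAV-shSCR and at 194 CPM ± 4.86 (SD, n = 5) in those given AAV-shA4. Gabbr1, a subunit of the GABA-B receptor, went from 871 CPM ± 21.8 to 679 CPM ± 13.3 and 695 CPM ± 15.7.

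For Cnr1 the nearest genes were Zbtb18 (r = 0.937), Camk4 (0.936), Cnpy1 (0.929), Asph (0.923) and Mical2 (0.910). Camk4, a calcium-dependent kinase abundant in granule cells, had 157 CPM ± 14.3 in WT mice, 146 CPM ± 4.32 with AAV-shSCR and 140 CPM ± 8.69 with AAV-shA4. For Mgll they were Rab1b (0.888), Ddost (0.886), Puf60 (0.855), Fam173a (0.851) and Chmp1a (0.850).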

How the data were processed

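The authors deposited raw counts per gene for the 20 libraries. Per the labels and the methods, the libraries were made with a stranded mRNA kit and read as single reads of 50 bases, which were trimmed with cutadapt 1.10, cleared of ribosomal RNA with Bowtie2 2.2.8, mapped to mm10 with STAR 2.5.3a and counted with HTSeq 0.6.1p1 on Ensembl release 102. The counts were used as deposited, and sample groups were taken from the labels.

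Symbols, positions, transcript lengths and CAG runs came from GENCODE M21, which holds 55141 of the 55401 genes. The 21897 protein-coding genes were filtered with filterByExpr (minimum count 10, minimum total 15) and tested in R 4.3.3 with edgeR 4.0.16 (TMM, quasi-likelihood test) and Benjamini-Hochberg adjustment over all genes tested. The 14 late libraries were fitted together, as were the 6 early ones, and the time points were compared in a fit of all 20. The common biological coefficient of variation was 0.079, 0.0729 and 0.0779. The counting error of a single library at a member's mean count in a group was 0.657% to 4.39%. It was at least as large as the spread between mice in 6 of 45 combinations of member and group (Daglb, Abhd6, Abhd12 and Napepld). Depth therefore also limits the precision for these. Labels name separate mice of each group.

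The alternatives were DESeq2 1.42.0, limma-voom (limma 3.58.1), other size factors, filters, gene sets and library sets, a replicate block, and leaving out each mouse. The steps were tested on simulated data. The members and lists were chosen with earlier results of these data known. All 9 members were named, with up to 4 passing genes of the largest change per list, and the 5 most similar genes for Dagla, Cnr1 and Mgll. Genes given outside this rule (Gnaq, Plcb4, and genes of the lists that could not be tested) were chosen after their values were seen. A gene of the list upstream of diacylglycerol is not reported here, and the list's counts and median leave it out.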

Additional observations from a re-analysis of the deposited data

Results flagged for a closer look

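Dixon's test on the CPM of each member in each group of at least 4 mice singled out 1 of 27 groups, where chance alone would single out about 1 in 20. Mgll in AAV-shSCR-treated SCA7 mouse replicate 1 had 146.7 CPM, whereas the other 4 mice of the group had 133.3 to 137.2 CPM, and the gap took up 0.715 of the range of the group. The same mouse had the highest Dagla, Daglb, Abhd6 and Abhd12 values of its group. Without it the log2 fold change of Mgll against WT mice was 0.0087, and it did not pass with or without this mouse.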

How the results depend on the processing

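With AAV-shSCR against WT mice, 1 member passed in the main analysis and under all alternatives other than a fit of only the 2 groups, which passed 2 (Dagla and Abhd12), and 1 to 2 passed when each mouse was left out. With AAV-shA4 against WT mice, 3 passed in the main analysis, 1 at an adjusted p under 0.01 and 1 to 4 when each mouse was left out. Between the time points, 5 passed, 2 at an adjusted p under 0.01 and 3 to 5 when each mouse was left out, and Daglb lost its pass under 6 other alternatives (adjusted p 0.0554 to 0.0849). Between the SCA7 groups and in the early mice 0 passed under all alternatives. Dagla passed in both SCA7 comparisons under each of them, with log2 fold changes of -0.76 to -0.72 with AAV-shSCR and -0.70 to -0.67 with AAV-shA4 when each mouse was left out. Over all members and alternatives, 712 of 765 values kept their direction and side of the threshold.

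Values near 0 changed sign when single mice were left out. Between the SCA7 groups these were Abhd6 (-0.011 to 0.025), Abhd12 (-0.014 to 0.029) and Napepld (-0.014 to 0.043). In the early mice they were Dagla (-0.026 to 0.078), Daglb (-0.0034 to 0.032), Cnr1 (-0.060 to 0.058), Mgll (-0.078 to 0.075), Abhd12 (-0.054 to 0.041) and Napepld (-0.046 to 0.041), and between the time points Cnr1 (-0.10 to 0.020).

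Replicate numbers did not pair the mice. Over 16 same-numbered pairs the correlation of their deviations was -0.31 to 0.553, and 4 were over 0.1. With the replicate block 1 member passed with AAV-shSCR, 2 with AAV-shA4 (Daglb had an adjusted p of 0.0839), 0 between the SCA7 groups, 0 in the early mice and 4 between the time points. Levels per length moved with the transcript length, as given for Mgll, Faah, the ratios of Dagla to Mgll and to Daglb and the hydrolase shares. The cause of these differences was not tested.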
